A study of Arabidopsis thaliana with 6 samples.

Results

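The genes of photosynthetic carbon fixation, starch turnover and sugar metabolism were taken from 2 tables of transcripts that differed between Arabidopsis thaliana seedlings labelled as the epl1a epl1b double mutant (epl1ab) and wild-type Col-0 seedlings. A gene entered the set if it lay on chromosomes 1 to 5 and its deposited description named Rubisco or ribulose, an enzyme of fructose-, sedoheptulose- or triose-phosphate conversion, phosphoribulokinase, starch, amylase, glucan water dikinase, sucrose, trehalose, hexokinase or invertase. Descriptions that named an inhibitor or a transporter were left out, which removed 4 genes. The rule found 33 of the 5330 genes in the tables. Of these, 10 were listed higher and 23 lower in the epl1ab-labelled libraries. The description rule also took 3 sucrose carriers, SUC2, SUC5 and SUC7, which are membrane proteins and not enzymes.

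RNA came from whole seedlings in the Columbia-0 background, 3 libraries labelled epl1a epl1b and 3 labelled wild type, from 3 independent experiments. Seedlings of both genotypes were 14 days old, had grown on plates with 1% sucrose at 22 °C in days of 16 h light and 8 h dark, and were taken 8 h after lights on. Both had been stratified for 3 days at 4 °C, and the light was 100 µmol per square metre per second. EPL1A and EPL1B encode Enhancer of Polycomb-like subunits of NuA4, a complex that acetylates histone H4, and the series concerns this acetylation in the transcription of nuclear and plastid genes as chloroplasts form. What the mutant alleles are was not given in the sources used here. In whole seedlings, fewer cells of a type and less RNA per cell cannot be told apart.

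In leaves, the Calvin cycle uses Rubisco to join CO2 to a sugar phosphate in the chloroplast stroma, and the triose phosphates it makes are kept there as starch by day or exported to the cytosol and made into sucrose. At night starch is phosphorylated, debranched and cut to maltose and glucose, which again feed sucrose synthesis. In sink tissues sucrose is split by invertases or sucrose synthases, and trehalose 6-phosphate acts as a signal of sucrose supply. Transcripts of several of these enzymes follow light, the circadian clock and sugar level, and all samples here were from 1 time of day and from a medium with sugar.

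Levels are given as normalised reads, the reads of a gene divided by a scaling factor for each library, and a log2 fold change is that of epl1ab-labelled over Col-0 libraries. The reads in listed genes were between 7355421 and 8625707 in the epl1ab-labelled libraries and between 9265086 and 10938542 in the Col-0 libraries, and these sums are not library depths. Of the targeted genes, EPL1A (AT1G16690) averaged 124.5 ± 3.34 normalised reads in epl1ab-labelled and 367.2 ± 9.59 in Col-0 libraries, and EPL1B (AT1G79020) averaged 17051 ± 69.2 in epl1ab-labelled and 719.5 ± 57.5 in Col-0 libraries (SD, n = 3 each). The EPL1B level goes against the label, so each direction below is drawn between labels. Among 18 seed maturation markers, 17 were in the tables and all 17 of these were listed higher. Their summed level was 1249, 208635 and 303506 normalised reads in epl1ab-labelled replicates 1, 2 and 3, against 495.0, 440.4 and 120.8 in the Col-0 libraries. NFYB9 (LEC1), an embryo regulator, had 0 reads in epl1ab-labelled replicate 1 and in all Col-0 libraries. LEC2, another, had 15.6, 17.4 and 15.9 normalised reads in the epl1ab-labelled libraries, against 2, 1.07 and 0 in Col-0. Storage proteins such as CRC and oleosins such as OLEO1 were abundant in epl1ab-labelled replicates 2 and 3 and scarce in replicate 1. Even in replicate 1 CRC had 287.4 normalised reads, against 62.0, 78.4 and 8.54 in Col-0, while OL2 and ABI3 lay below the Col-0 mean. The part of this library difference in the results below was not tested, and values without replicates 2 and 3 are given where they move a result.

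Every gene in the tables had been selected by the authors on the same libraries: the absolute log2 fold change was never under 1, and the false discovery rate was below 0.05. Of all 5330 listed genes 66.1% were listed higher and 33.9% lower, so the 10 higher and 23 lower members had the opposite balance (30.3% and 69.7%). No test of this balance was run, and members were not chosen at random. In the edgeR quasi-likelihood fit of 4773 listed genes, 100.0% were called at a Benjamini-Hochberg adjusted p under 0.05, 63.1% as higher and 36.9% as lower. The fit held 32 of the 33 members, and it called 9 higher and 23 lower. Because the genes had been selected on these libraries, a call adds little to the listing. The normalised reads of the groups did not overlap for any of the 33 members, as for 98.5% of all listed genes. The authors' deposited table gave a median log2 fold change of -1.84 for the 23 lower members, against -1.45 for all genes listed lower, and of 1.28 for the 10 higher members, against 1.94 for all genes listed higher.

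**Figure D1:**
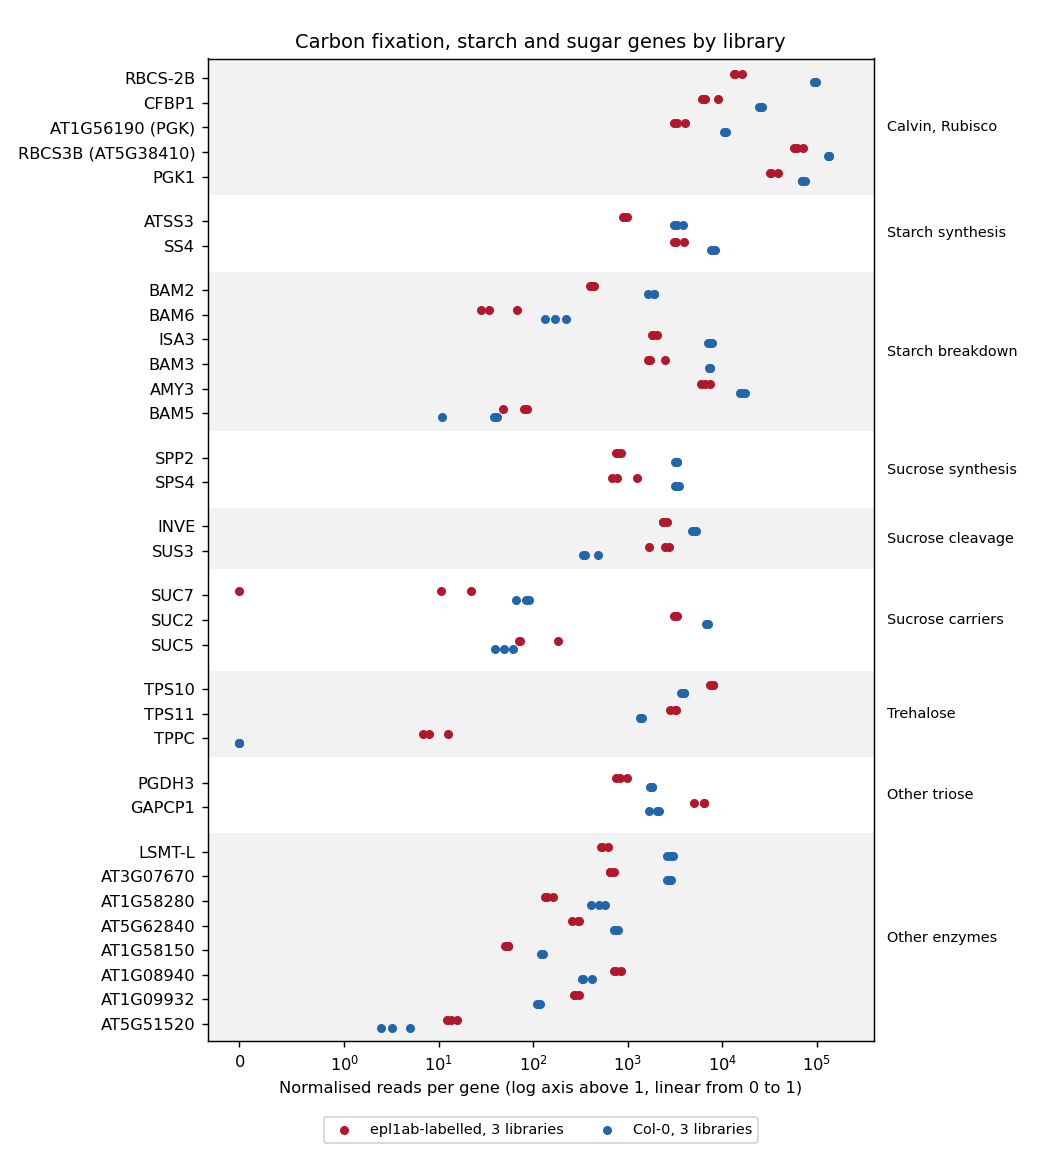
Normalised reads (x axis, logarithmic above 1 and linear from 0 to 1) of the 33 genes in each of 3 epl1ab-labelled libraries (red, upper row of each gene) and 3 Col-0 libraries (blue, lower row), grouped by role; each point is 1 library. No gene has overlapping groups, and SUC7 and TPPC are the genes with libraries at 0.

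Most lower members were counted with many reads, which keeps counting error small but not the spread between libraries. Reads here are not corrected for length. Their median was 927.5 normalised reads in epl1ab-labelled and 3437 in Col-0 libraries, and all genes listed lower had medians of 491.5 in epl1ab-labelled and 1438 in Col-0 libraries. Higher members had medians of 527.8 normalised reads in epl1ab-labelled and 236.5 in Col-0 libraries, and all genes listed higher had medians of 134.5 in epl1ab-labelled and 30.4 in Col-0 libraries. Summed over the 23 lower members, the reads of the epl1ab-labelled replicates 1, 2 and 3 came to 167547, 141848 and 135886, against 411289, 414824 and 404791 in Col-0. The sum is dominated by the Rubisco and phosphoglycerate kinase transcripts. The word chloroplastic stood in the description of 10 of the 23 lower members (43.48%) and of 1 of the 10 higher members, GAPCP1. Among all listed genes it stood in 20.76% of those lower and 0.96% of those higher.

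All 5 Calvin cycle members were lower, by 2.06-fold to 6.65-fold in the edgeR fit, though with library totals as the scaling RBCS3B (adjusted p = 0.0601) and PGK1 (adjusted p = 0.0649) were not called. They comprised the Rubisco small subunit genes RBCS-2B and RBCS3B (AT5G38410), the plastid fructose-1,6-bisphosphatase CFBP1, and 2 phosphoglycerate kinases, AT1G56190 and PGK1. The kinases were placed here by a textbook list, and whether AT1G56190 serves the Calvin cycle or another route was not tested. Of these 5, RBCS-2B fell most. The gene lies on the minus strand of chromosome 5 (15380907 to 15382071, TAIR10). It had 16360, 13442 and 13549 normalised reads in the epl1ab-labelled libraries and 97677, 96429 and 93986 in the Col-0 libraries. The groups lay far apart and replicate 1 was the highest of the epl1ab-labelled libraries. The log2 fold change was -2.73 ± 0.11 (SE; edgeR adjusted p = 1.18e-06).

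RBCS3B, the neighbour of RBCS-2B on the same strand (15376988 to 15378642), fell much less. Its level was 70958, 61294 and 57819 normalised reads in epl1ab-labelled libraries, against 136289, 131405 and 135122 in Col-0, and the log2 change was -1.08 ± 0.11 (SE; edgeR adjusted p = 4.55e-05). Per kb of exon the pair were near each other in Col-0, with means of 102707 normalised reads for RBCS-2B and 95228 for RBCS3B. This nearness depends on the exon lengths, 935 and 1410 bases over all annotated transcripts of RBCS-2B and RBCS3B. Without the length correction the Col-0 means were 96031 for RBCS-2B and 134272 for RBCS3B. In the epl1ab-labelled libraries the means per kb were 15455 for RBCS-2B and 44934 for RBCS3B. Their ratio per kb was 0.348, 0.331 and 0.353 in epl1ab-labelled libraries, against 1.08, 1.11 and 1.05 in Col-0. The ratios did not overlap between labels, and the two-sided exact permutation p was 0.1, the smallest that 3 against 3 libraries allow. The comparison of this pair was chosen after its values were seen. The small subunit genes are close copies: 21.4% of the 50-base words of the RBCS-2B transcript, and 18.3% of those of RBCS3B, occur also in another annotated gene, mostly RBCS1B, which lies beside them. Reads were 50 bases long and the handling of shared reads was not given in the sources used here, so the 2 single levels are uncertain to that extent. RBCS1A and RBCS1B were not in the tables.

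The 250 bases before the annotated starts of the pair are printed because these neighbours fell by different amounts, in lower case with motif matches in capitals, from the RefSeq TAIR10.1 genome whose gene coordinates are the same as those of the deposited tables for all 33 members. Letters searched on both strands were CACGTG (G-box), GATAAG (I-box), AAATATCT (evening element), TATCCA (amylase box) and GATTCT (letters bound by GLK factors). RBCS-2B, chr5:15382072-15382321, minus strand, holds 3 I-box matches and 1 G-box match.
RBCS-2B: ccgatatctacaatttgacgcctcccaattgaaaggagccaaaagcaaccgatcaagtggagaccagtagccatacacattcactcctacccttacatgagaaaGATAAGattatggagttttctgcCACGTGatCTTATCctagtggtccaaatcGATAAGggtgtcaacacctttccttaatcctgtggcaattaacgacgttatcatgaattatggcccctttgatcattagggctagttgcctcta
RBCS3B, chr5:15378643-15378892, minus strand, holds none of these letters in the window.
RBCS3B: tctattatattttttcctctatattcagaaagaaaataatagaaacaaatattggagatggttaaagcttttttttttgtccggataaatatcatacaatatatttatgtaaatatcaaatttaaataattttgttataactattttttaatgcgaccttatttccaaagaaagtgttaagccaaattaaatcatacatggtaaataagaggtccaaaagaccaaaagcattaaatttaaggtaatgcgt
A match is a description of the letters and not a bound site, and its absence says nothing of a factor. The annotated exons total 935 bases for RBCS-2B and 1410 for RBCS3B, so the 2 windows may not lie at equivalent places. Whether the letters bear on the different falls was not tested.

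CFBP1 (chromosome 3, 20016837 to 20018822), which removes a phosphate to commit carbon to regeneration and to starch, had 8925, 6603 and 6027 normalised reads in epl1ab-labelled libraries, against 24757, 26648 and 25544 in Col-0. The fall was 3.57-fold (log2 change -1.84 ± 0.15 SE, edgeR adjusted p = 1.81e-05), and replicate 1 was again the least changed library. The phosphoglycerate kinase AT1G56190 had 4043, 3304 and 3074 normalised reads in epl1ab-labelled libraries, against 10546, 10704 and 10857 in Col-0. Its log2 fold change was -1.62 ± 0.11 (SE; edgeR adjusted p = 7.68e-06). PGK1, the more abundant kinase, had 39178, 33089 and 32152 normalised reads in epl1ab-labelled libraries, against 70401, 74860 and 70199 in Col-0. PGK1 changed least of the Calvin cycle members, with a log2 change of -1.05 ± 0.10 (SE; edgeR adjusted p = 4.63e-05). The ratio of AT1G56190 to PGK1 per kb of exon was 0.0971, 0.0940 and 0.0900 in epl1ab-labelled libraries, against 0.141, 0.135 and 0.146 in Col-0. These ratios did not overlap either (two-sided exact permutation p = 0.1, the smallest possible; pair chosen after its values were seen).

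**Figure D2:**
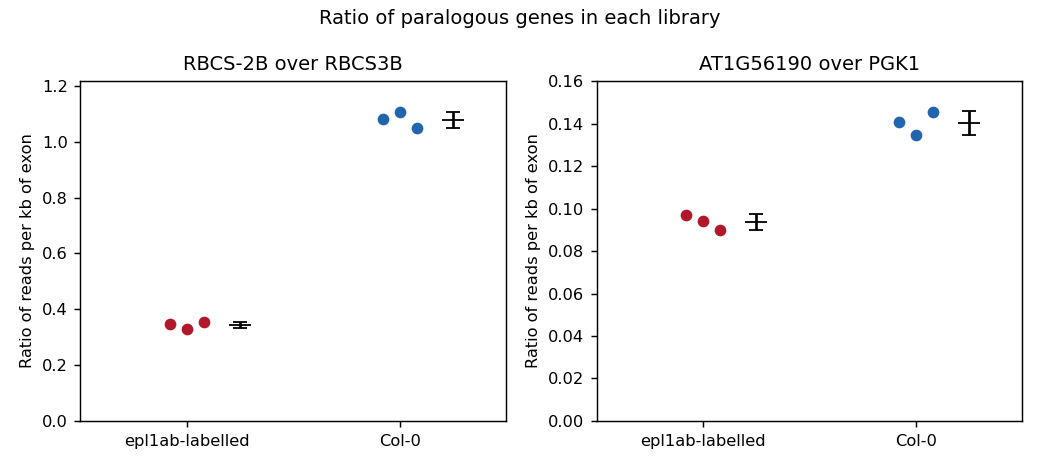
Ratio of reads per kb of exon (y axis, from 0) of RBCS-2B to RBCS3B (left) and of AT1G56190 to PGK1 (right) in 3 epl1ab-labelled and 3 Col-0 libraries; points are libraries, and the black bar beside them is the mean with SD. The first ratio averages 0.344 in epl1ab-labelled and 1.08 in Col-0 libraries, the second 0.0937 in epl1ab-labelled and 0.140 in Col-0 libraries.

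A list of 25 Calvin cycle and Rubisco genes, made from textbook knowledge, had 8 genes listed lower and 1 higher (32% and 4%). Over all annotated nuclear protein-coding genes, 6.31% were listed lower and 12.3% higher, a background that also counts genes silent in seedlings. Of list genes whose descriptions the rule did not catch, AT5G64380, a second plastid fructose-bisphosphatase gene, had a log2 fold change of -1.55 ± 0.14 (SE) and GAPA-2, a subunit of the photosynthetic glyceraldehyde-3-phosphate dehydrogenase, one of -1.40 ± 0.11 (SE). CP12-3, of the small CP12 proteins that bind that dehydrogenase and phosphoribulokinase, rose 2.65-fold. Its level was 721.1, 875.8 and 870.3 normalised reads in epl1ab-labelled libraries, against 311.0, 316.9 and 303.8 in Col-0. Rubisco activase (RCA), phosphoribulokinase (PRK), sedoheptulose-bisphosphatase (SBPASE), GAPB and the plastid aldolases FBA1, FBA2 and FBA3 were among the 16 list genes not in the tables; their change is not analysed here.

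Transcripts of 2 annotated methyltransferases were lower. LSMT-L, an enzyme that trimethylates the plastid aldolases, had 610.3, 533.4 and 519.7 normalised reads in epl1ab-labelled libraries, against 2881, 3032 and 2621 in Col-0. It fell 5.13-fold (log2 change -2.36 ± 0.10 SE, edgeR adjusted p = 1.25e-06). AT3G07670, described as a putative methyltransferase of the Rubisco small subunit, had 720.2, 650.1 and 654.4 normalised reads in epl1ab-labelled libraries, against 2765, 2869 and 2580 in Col-0. Its log2 fold change was -2.02 ± 0.08 (SE; edgeR adjusted p = 1.10e-06), with the epl1ab-labelled libraries close together.

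Starch genes fell on both the synthetic and the degradative side. Both starch synthases in the set were lower. ATSS3 (SS3), which extends glucan chains, had 985.9, 917.2 and 879.5 normalised reads in epl1ab-labelled libraries, against 3339, 3878 and 3095 in Col-0 (log2 change -1.89 ± 0.10 SE, edgeR adjusted p = 3.10e-06). SS4, which starts new starch granules, had 3926, 3229 and 3063 normalised reads in epl1ab-labelled libraries, against 8125, 8458 and 7508 in Col-0. The fall of SS4 was 2.36-fold (edgeR adjusted p = 2.54e-05). The textbook list of 22 starch synthesis genes had 7 lower and 0 higher in the authors' deposited tables (31.8% and 0%). Of all annotated nuclear protein-coding genes, 6.31% were listed lower and 12.3% higher. That edgeR called the same counts adds nothing, since it called 100.0% of the listed genes in the fit. APS1, the small subunit of ADP-glucose pyrophosphorylase, which makes the glucosyl donor, fell 5.55-fold, and ISA2, an isoamylase partner that trims growing glucans, fell 5.59-fold. PGMP, the plastid phosphoglucomutase, SBE2.1, a branching enzyme, and SBE3, a putative one, were the other list genes outside the rule that were lower. The large subunit genes APL1 to APL4 and the granule-bound synthase GBSS1 were not in the tables.

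Of the 6 starch breakdown members, 5 were lower and BAM5 was higher. BAM3, the main plastid beta-amylase of night-time starch breakdown, had 2492, 1620 and 1729 normalised reads in epl1ab-labelled libraries, against 7193, 7416 and 7390 in Col-0 (log2 change -1.91 ± 0.16 SE, edgeR adjusted p = 2.13e-05). ISA3 (chromosome 4, 5783909 to 5789100), which debranches starch during breakdown, had 2061, 1807 and 1839 normalised reads in epl1ab-labelled libraries, against 7501, 7724 and 7112 in Col-0 (log2 change -1.97 ± 0.08 SE, edgeR adjusted p = 1.18e-06). The ISA3 libraries were tightly grouped, whereas BAM3 replicate 1 stood above the other epl1ab-labelled replicates. BAM2, a plastid beta-amylase, had 442.3, 401.2 and 405.0 normalised reads in epl1ab-labelled libraries, against 1888, 1907 and 1641 in Col-0. Its fall was 4.35-fold (edgeR adjusted p = 1.80e-06).

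AMY3, the plastid alpha-amylase, had the highest level per kb of exon of these 6, with means of 2119 normalised reads in epl1ab-labelled and 5193 in Col-0 libraries, and fell least of the 5 that fell. It had 7365, 6516 and 5975 normalised reads in epl1ab-labelled libraries, against 15776, 17490 and 15402 in Col-0, and the log2 change was -1.29 ± 0.10 (SE; edgeR adjusted p = 1.44e-05). BAM6 had few reads, with 66.7, 28.0 and 34.3 normalised reads in epl1ab-labelled libraries, against 133.0, 219.1 and 169.6 in Col-0. Its log2 change of -2.01 ± 0.35 (SE; edgeR adjusted p = 0.000891) was -1.38 with epl1ab-labelled replicate 1 alone against Col-0. BAM5, a beta-amylase outside the plastid found mostly in phloem, had 47.6, 79.1 and 85.4 normalised reads in epl1ab-labelled libraries, against 38.0, 10.7 and 41.5 in Col-0. The BAM5 groups nearly touched, and the log2 change of 1.23 ± 0.46 (SE; edgeR adjusted p = 0.0310) was not called without epl1ab-labelled replicate 2 (adjusted p = 0.0815), without epl1ab-labelled replicate 3 (0.0875), without Col-0 replicate 1 (0.0564) or with epl1ab-labelled replicate 1 alone (log2 change 0.67, adjusted p = 0.315). It was also not called with TMM factors (log2 change 0.79, adjusted p = 0.0983) or with DESeq2 size factors of the listed genes (log2 change 0.12, adjusted p = 0.845).

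The textbook list of 25 starch breakdown genes was the one with the largest share lower in the authors' deposited tables: 13 lower and 1 higher, 52% and 4%. The shares over all annotated nuclear protein-coding genes were 6.31% lower and 12.3% higher. The edgeR calls gave the same counts, as they must where 100.0% of the listed genes in the fit were called. Outside the rule, PU1, the limit dextrinase, fell 7.0-fold, with 563.5, 484.2 and 487.0 normalised reads in epl1ab-labelled libraries, against 3334, 3872 and 3534 in Col-0. DPE1, the plastid disproportionating enzyme that recycles short glucans, fell 5.08-fold. The other list genes outside the rule that were lower were the phosphoglucan phosphatases LSF2 and DSP4 (SEX4), the dikinase GWD3 that adds phosphate to starch, the phosphorylases PHS1 and PHS2, and the maltose exporter MEX1. Of the MEX1 transcript 40.5% of 50-base words occur also in the neighbouring gene AT5G17523, so its level is uncertain. The first dikinase GWD1 and the beta-amylase BAM1 were not in the tables.

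Promoters of BAM2, CFBP1 and ISA3, all lower members, are shown as examples that hold matches in windows overlapping no other annotated gene. Further members meet this description too, such as the lower SUC2 and the higher GAPCP1, TPS11 and SUC5. BAM2 (chr4:222039-222288, plus strand) and CFBP1 (chr3:20016587-20016836, plus strand) both hold an I-box and a G-box match, and in CFBP1 an amylase box overlaps an I-box. ISA3 (chr4:5783659-5783908, plus strand) holds 1 evening element match on the minus strand.
BAM2: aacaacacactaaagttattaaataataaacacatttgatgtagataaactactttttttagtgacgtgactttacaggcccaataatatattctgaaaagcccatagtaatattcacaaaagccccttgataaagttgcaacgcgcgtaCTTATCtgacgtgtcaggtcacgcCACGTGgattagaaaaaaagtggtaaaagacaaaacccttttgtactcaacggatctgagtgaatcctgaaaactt
CFBP1: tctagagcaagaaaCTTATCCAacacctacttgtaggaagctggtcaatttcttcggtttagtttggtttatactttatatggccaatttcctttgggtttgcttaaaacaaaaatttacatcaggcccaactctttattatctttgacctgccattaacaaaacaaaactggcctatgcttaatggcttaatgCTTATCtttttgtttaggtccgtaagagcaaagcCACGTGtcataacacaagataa
ISA3: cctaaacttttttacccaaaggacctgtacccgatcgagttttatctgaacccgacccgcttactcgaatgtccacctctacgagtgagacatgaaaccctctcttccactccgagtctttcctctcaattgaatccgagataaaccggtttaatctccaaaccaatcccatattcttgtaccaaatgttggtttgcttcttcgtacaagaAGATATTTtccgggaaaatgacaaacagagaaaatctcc
Over all lower members, the G-box letters were in 6 of 23 windows, the I-box in 5, the evening element in 3, and the amylase box and the GLK letters in 4 each. Over all higher members they were in 2, 2, 0, 2 and 2 of 10 windows. Of 27443 windows before nuclear protein-coding genes, 6.49% held the G-box, 12.29% the I-box, 4.79% the evening element, 13.64% the amylase box and 15.93% the GLK letters. These counts are small and nothing particular to the members is drawn from them.

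**Figure D3:**
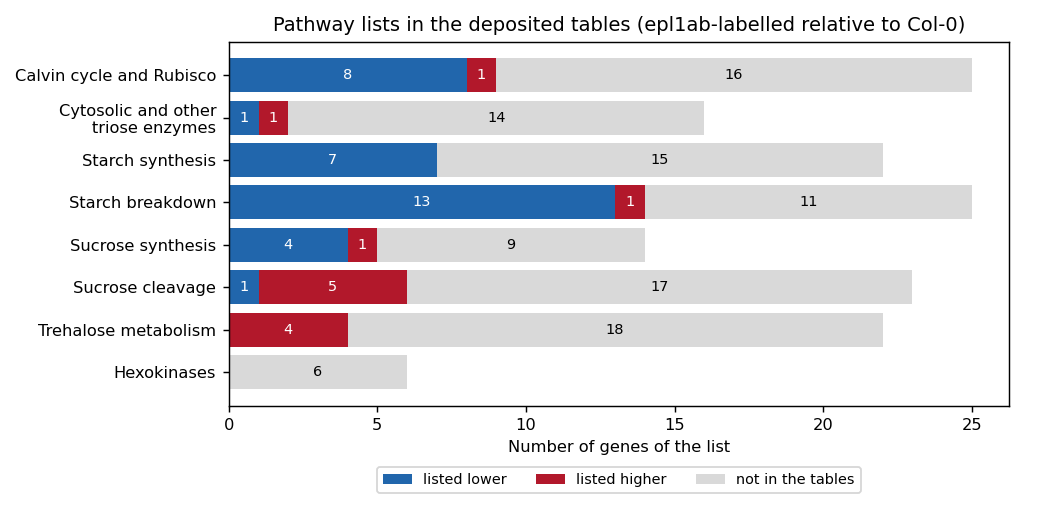
Number of genes (x axis) of 8 textbook pathway lists that the authors' tables list as lower (blue) or higher (red) in the epl1ab-labelled libraries relative to Col-0, or that are not in the tables (grey). Starch breakdown has 13 of 25 genes lower, while sucrose cleavage has 5 of 23 and trehalose metabolism 4 of 22 genes higher; of all annotated nuclear protein-coding genes 6.31% were listed lower and 12.3% higher.

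Both sucrose synthesis members were lower. SPP2 (AT2G35840), a sucrose-phosphatase, the enzyme of the last step, had 755.7, 794.7 and 837.6 normalised reads in epl1ab-labelled libraries, against 3287, 3305 and 3188 in Col-0. The fall was 4.09-fold (log2 change -2.03 ± 0.07 SE, edgeR adjusted p = 9.12e-07), and SPP2 was 1 of only 2 lower members with replicate 1 as the lowest epl1ab-labelled library. SPS4, a sucrose-phosphate synthase, which makes the phosphorylated precursor, had 1242, 777.4 and 677.0 normalised reads in epl1ab-labelled libraries, against 3249, 3124 and 3465 in Col-0 (log2 change -1.87 ± 0.22 SE, edgeR adjusted p = 0.000102). Replicate 1 stood well above the other epl1ab-labelled libraries, at a log2 ratio of -1.40 to the Col-0 mean. Another isoform outside the rule, SPS3, was listed higher, with 155.8, 353.0 and 359.0 normalised reads in epl1ab-labelled libraries, against 158.0, 141.8 and 100.0 in Col-0. The SPS3 groups overlapped, since replicate 1 lay within the Col-0 range. FKFBP, which makes and breaks fructose 2,6-bisphosphate, a brake on cytosolic sucrose synthesis, fell 2.71-fold, and the cytosolic glucose-6-phosphate isomerase PGIC fell 2.10-fold. The list of 14 sucrose synthesis genes had 4 lower and 1 higher (28.6% and 7.1%). Over all annotated nuclear protein-coding genes the shares were 6.31% lower and 12.3% higher.

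The sucrose-cleaving members moved in opposite directions. SUS3, a sucrose synthase, which splits sucrose with UDP and is known in Arabidopsis from maturing seeds, rose most of all members in the fit. It had 1672, 2503 and 2750 normalised reads in epl1ab-labelled libraries, against 478.0, 338.4 and 352.6 in Col-0, a 5.92-fold rise (log2 change 2.57 ± 0.22 SE, edgeR adjusted p = 2.33e-05). Among the epl1ab-labelled libraries, both SUS3 and the summed seed marker level were lowest in replicate 1. That sum, 1249 normalised reads, was still above the 495.0, 440.4 and 120.8 of the Col-0 libraries. When replicates 2 and 3 were dropped from the fit, the log2 change of SUS3 was 2.10. Whether the SUS3 rise goes with the seed markers was not tested. INVE, the plastid alkaline/neutral invertase, fell 2.10-fold, with 2596, 2331 and 2336 normalised reads in epl1ab-labelled libraries, against 5112, 5329 and 4824 in Col-0 (edgeR adjusted p = 8.70e-06). The textbook list of 23 sucrose cleavage genes had 5 higher and 1 lower (21.7% and 4.3%). Among all annotated nuclear protein-coding genes 12.3% were listed higher and 6.31% lower, and no test of the difference was run. CWINV6, a member of the cell wall invertase family that acts on fructans, had 715.9, 954.8 and 784.9 normalised reads in epl1ab-labelled libraries, against 91.0, 23.6 and 101.3 in Col-0, an 11.4-fold rise with little spread between the epl1ab-labelled libraries. BFRUCT3, a vacuolar invertase, rose 3.17-fold. CWINV4 had 92 reads over the epl1ab-labelled libraries and 5 over Col-0, a ratio of 14.9 with an exact binomial 95% interval, for counting error alone, from 6.18 to 47.1. CWINV5 had 34 reads over the epl1ab-labelled libraries and 0 over Col-0, at least 9.20-fold higher if 3 counts are allowed to the Col-0 libraries together; it overlaps the gene AT3G13782. The other sucrose synthases and the cytosolic invertases CINV1 and CINV2 were not in the tables.

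Among the sucrose carriers, SUC2, the proton symporter that loads sucrose into the phloem, had 3308, 3243 and 3051 normalised reads in epl1ab-labelled libraries, against 7147, 6896 and 6764 in Col-0. It fell 2.17-fold (log2 change -1.12 ± 0.07 SE, edgeR adjusted p = 4.45e-06), with narrow spread in both groups. SUC7 had 21.6, 10.6 and 0 normalised reads in epl1ab-labelled libraries, against 89.0, 65.5 and 84.2 in Col-0. Its log2 change of -2.88 ± 0.72 (SE; edgeR adjusted p = 0.00522) was -3.96 without epl1ab-labelled replicate 1, -2.28 without replicate 3 and -1.87 with replicate 1 alone, and 6.86% of its 50-base words occur in other genes. SUC5, known from the endosperm of seeds, had 70.1, 72.3 and 184.1 normalised reads in epl1ab-labelled libraries, against 61.0, 48.3 and 39.0 in Col-0. Replicate 3 set most of this rise: the log2 change of 1.13 ± 0.42 (SE; edgeR adjusted p = 0.0312) was 0.52 (adjusted p = 0.0871) without that replicate, and 0.49 (adjusted p = 0.185) with replicate 1 alone. SUC5 was also not called with the replicate number as a block (adjusted p = 0.0652), without Col-0 replicate 1 (adjusted p = 0.0507), without Col-0 replicate 2 (adjusted p = 0.0843) or without Col-0 replicate 3 (adjusted p = 0.108). Nor was it called with TMM factors (log2 change 0.69, adjusted p = 0.109), and with DESeq2 size factors of the listed genes its log2 change was -0.0087.

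All 3 trehalose pathway members were listed higher, although with DESeq2 size factors of the listed genes TPS10 had a log2 change of -0.0973 (adjusted p = 0.527) and TPS11 one of 0.054 (adjusted p = 0.8), and neither was called. That scaling shifted the median log2 change of all listed genes in the fit by -1.11. TPS10 and TPS11 belong to the class of trehalose-phosphate synthase-like proteins whose catalytic activity is weak or absent and which are held to act in regulation. TPS10 had 7452, 7919 and 7912 normalised reads in epl1ab-labelled libraries, against 3683, 3924 and 3921 in Col-0 (log2 change 1.01 ± 0.07 SE, edgeR adjusted p = 6.81e-06). TPS11 had 3256, 3148 and 2821 normalised reads in epl1ab-labelled libraries, against 1366, 1428 and 1340 in Col-0 (log2 change 1.16 ± 0.08 SE, edgeR adjusted p = 7.00e-06). The change of TPS10 was close to the authors' threshold. Both synthase-like genes had very little spread, so that the groups were well separated. TPPC, a trehalose-phosphate phosphatase, had 9, 7 and 15 reads in epl1ab-labelled libraries and 0 in each Col-0 library, at least 8.39-fold higher if 3 counts are allowed to the Col-0 libraries together; it did not pass the count filter of the fit. TRE1, the trehalase that splits trehalose and whose description the rule did not catch, rose 2.70-fold, with 1326, 1068 and 983.2 normalised reads in epl1ab-labelled libraries, against 406.0, 422.2 and 424.6 in Col-0. The list of 22 trehalose genes had 4 higher (18.2%) and 0 lower in the authors' deposited tables, beside 12.3% and 6.31% of all annotated nuclear protein-coding genes, so the share higher was near the background. TPS1, the catalytic synthase, and the 8 other TPS genes of the list were not in the tables, and none of the 6 hexokinase genes was.

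Other triose-phosphate enzymes included GAPCP1, a glycolytic glyceraldehyde-3-phosphate dehydrogenase of plastids, which rose 3.05-fold. It had 5025, 6445 and 6352 normalised reads in epl1ab-labelled libraries, against 2126, 1667 and 2050 in Col-0 (log2 change 1.61 ± 0.13 SE, edgeR adjusted p = 1.86e-05). Its direction was opposite to that of the photosynthetic dehydrogenase subunit gene GAPA-2. PGDH3, a plastid phosphoglycerate dehydrogenase that opens a route from phosphoglycerate to serine, had 985.1, 758.1 and 819.2 normalised reads in epl1ab-labelled libraries, against 1735, 1818 and 1817 in Col-0. Its log2 fold change was -1.07 ± 0.11 (SE; edgeR adjusted p = 5.12e-05). The cytosolic dehydrogenases GAPC1 and GAPC2 and both phosphoglycerate mutases of the list were among 14 of 16 list genes not in the tables.

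The remaining members were named for phosphoglycerate mutase or kinase, or as an invertase, from sequence similarity. AT1G58280 and AT5G62840, of a phosphoglycerate mutase-like family that also holds phosphatases, fell 3.41-fold and 2.59-fold. AT1G58280 had 160.1, 138.9 and 133.9 normalised reads in epl1ab-labelled libraries, against 494.0, 407.1 and 574.6 in Col-0, and AT5G62840 had 295.2, 306.7 and 257.7 in epl1ab-labelled libraries, against 779.0, 716.5 and 728.4 in Col-0. The same family moved the other way in AT1G08940 and AT1G09932, which rose 2.14-fold and 2.51-fold; with DESeq2 size factors of the listed genes neither was called, at log2 changes of -0.0099 for AT1G08940 (adjusted p = 0.966) and 0.22 for AT1G09932 (adjusted p = 0.354). AT1G08940 had 708.9, 752.3 and 856.0 normalised reads in epl1ab-labelled libraries, against 333.0, 330.8 and 417.3 in Col-0. AT1G09932 had 271.8, 275.8 and 302.1 normalised reads in epl1ab-labelled libraries, against 117.0, 108.5 and 112.2 in Col-0. All of these groups were apart. AT1G58150, a short gene described as a putative phosphoglycerate kinase, had 50.2, 54.0 and 54.4 normalised reads in epl1ab-labelled libraries, against 126.0, 123.5 and 120.8 in Col-0 (log2 change -1.22 ± 0.14 SE, edgeR adjusted p = 0.000107). AT5G51520 is described as an invertase in the deposited table, but RefSeq names its product as one of the invertase and pectin methylesterase inhibitor family. It had 46 reads over the epl1ab-labelled libraries and 10 over Col-0, a ratio of 3.74 with an exact binomial 95% interval, for counting error alone, from 1.86 to 8.30. It was not called with DESeq2 size factors of the listed genes (log2 change 0.81, adjusted p = 0.416).

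**Figure D4:**
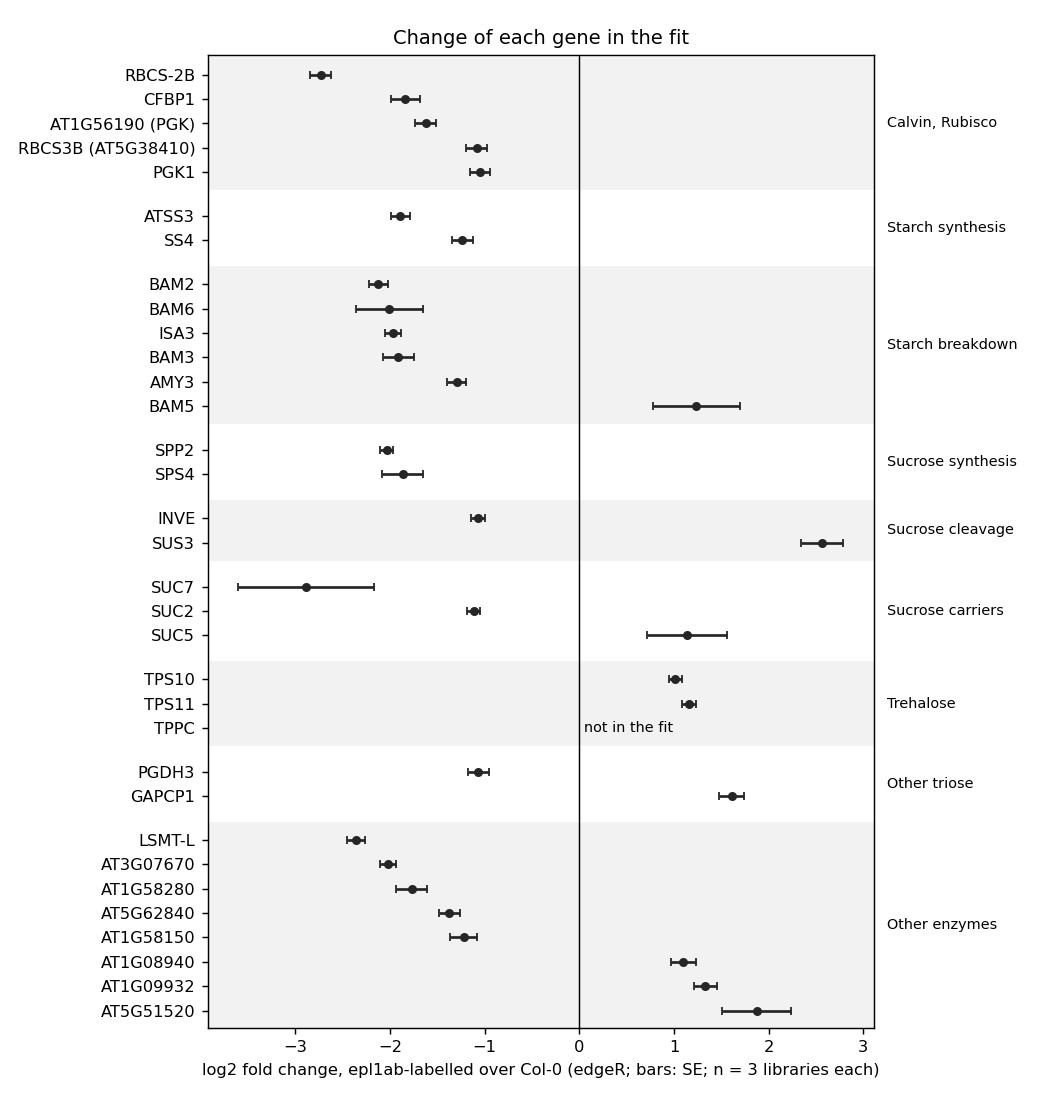
Log2 fold change of epl1ab-labelled over Col-0 libraries (x axis; points, edgeR estimates; bars, SE; 3 libraries per group) for the genes in the fit, grouped by role; TPPC is marked as not in the fit. Calvin cycle, starch synthesis and sucrose synthesis genes lie left of 0, from RBCS-2B at -2.73 to PGK1 at -1.05, while SUS3 lies farthest right at 2.57.

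The epl1ab-labelled libraries did not change equally. Replicate 1 had the highest level of the 3 in 20 of the 23 lower members (86.96%) and in 69.49% of all genes listed lower, and it had the lowest level in 8 of the 10 higher members (80.0%) and in 64.61% of all genes listed higher. The median log2 ratio to the Col-0 mean over the lower members was -1.40, -1.91 and -1.96 in replicates 1, 2 and 3, against -1.38, -1.52 and -1.51 over all genes listed lower. Over the higher members it was 1.25, 1.33 and 1.60, against 1.65, 1.95 and 1.99 over all genes listed higher. Replicate 1 was thus the library nearest to Col-0, and it is also the one with the low seed marker sum. When epl1ab-labelled replicate 1 alone was set against Col-0, log2 changes of the lower members ran from -2.55 (RBCS-2B) to -0.86 (PGDH3). Those of the higher members in the fit ran from 0.49 (SUC5) to 2.10 (SUS3), with BAM5 at 0.67 and AT5G51520 at 1.71. The lone library is then assumed to vary like the Col-0 libraries. Over all listed genes in that fit the median log2 change shifted by -0.042. This median pools genes listed higher and lower, so that moves toward 0 in opposite directions can cancel in it.

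**Figure D5:**
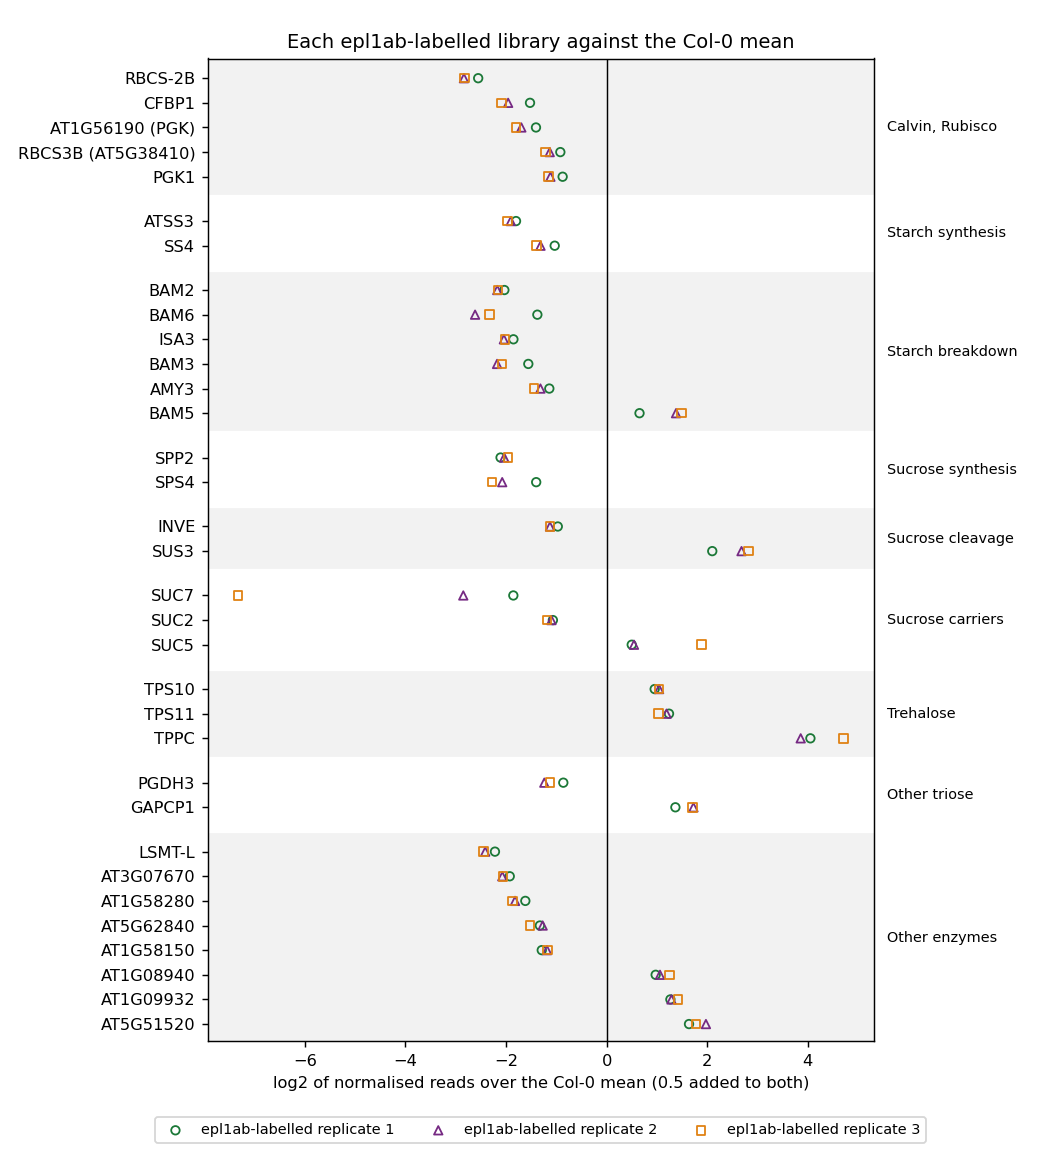
Log2 ratio of normalised reads in each epl1ab-labelled library to the Col-0 mean (x axis, 0.5 added to both; circles, triangles and squares are replicates 1, 2 and 3) for the 33 genes grouped by role. Replicate 1 is the marker nearest to 0 for most genes, SUC7 has 0 reads in replicate 3, and no marker crosses 0.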

How the data were processed

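Per the labels' protocols, total RNA of whole seedlings was depleted of ribosomal RNA, made into stranded libraries and sequenced as single-end reads of 50 bases. Per the submitters' processing notes, the authors used TAIR10 and DESeq2; what aligned and counted the reads, and whether strand was used, was not given in the sources used here. Per the file headers, the deposited tables hold raw read counts per gene and library, a p-value with its false discovery rate, and the log2 ratio of epl1ab to Col-0.

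Since the tables hold selected genes, the authors' scaling was recovered by least squares from the log2 fold changes of the 1774 genes that reach 200 reads in each library (median absolute residual 0.000289). Counts were tested with edgeR 4.0.16 (limma 3.58.1, R 4.3.3), after its expression filter, with these factors as library sizes, without a block for replicate, and adjusted by Benjamini-Hochberg over 4773 genes; DESeq2 1.42.0 was an alternative. The fit was tested on simulated data. Standard errors are the size of the log2 change divided by the root of its F statistic. Locus names of 14 rows, none a member, were reassigned by coordinates to the RefSeq annotation of TAIR10.1, in which 98.56% of 5294 matched genes have the same start and end. Of the 33 members, 11 overlap another annotated gene (GAPCP1, LSMT-L, BAM2, BAM3, BAM6, SPP2, ATSS3, SPS4, CFBP1, PGDH3 and PGK1), whose reads cannot be told apart if counting ignored strand. Levels between genes were compared per kb of annotated exon.

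Members, lists and alternatives were chosen with earlier results of these data known. Members with at least 100 mean normalised reads, up to 4 per role and direction, were named with full values, and up to 2 other list genes per direction; further names were added after values were seen. Libraries are labelled as replicates and the labels do not say that a number marks a shared experiment. Alternatives were other scalings, DESeq2, no filter, a replicate block, each library left out, and epl1ab replicate 1 alone. Matplotlib 3.10.9, Python 3.11.15, pandas 2.3.3, numpy 2.4.6 and scipy 1.17.1 were used.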

Additional observations from a re-analysis of the deposited data

How the results depend on the processing

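Of the members called, 23 lower calls held under each alternative but library totals, which left 21, and 6 to 10 members were called higher, against 9, except with DESeq2 and its own size factors of the listed genes, which called 3: SUS3, GAPCP1 and TPPC, of which TPPC enters fits without the count filter only. Leaving out 1 library gave 7 to 9 higher and 23 lower calls. Scaling alternatives move every gene: the median log2 fold change shifted by -0.43 with TMM factors, by 0.69 with library totals and by -1.11 with DESeq2 size factors of the listed genes. Under the last, SUC5 (-0.0087), AT1G08940 (-0.0099) and TPS10 (-0.0973) reversed, and TPS11, AT1G09932, BAM5 and AT5G51520 kept their direction but were not called; with library totals RBCS3B and PGK1 were not (edgeR adjusted p = 0.0601 and 0.0649). Every gene in the tables was selected as changed, so TMM and DESeq2 size factors over them have no unchanged majority to rest on. TPS10, for example, moved from 1.01 to -0.0973, beside the median shift of -1.11. The moves of single genes were not tested beyond the shift. Over all listed genes, DESeq2 called 1585 higher and 1806 lower with its own factors, and 3516 and 1805 with the recovered factors; edgeR called 3012 and 1761. The replicate block gave 8 higher and 23 lower calls. Deviations of same-numbered libraries from their group means had correlations of -0.417, -0.0362 and -0.337. Replicates 2 and 3 of the epl1ab-labelled group deviated alike and replicate 1 opposite to them. The correlations therefore cannot decide whether a number marks a shared experiment. No sample was paired in the results. Without the 3 sucrose carriers, chosen after seeing the data, 8 members were higher and 21 lower. Low counts limit TPPC, AT5G51520, SUC7 and BAM5.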
